A study of Homo sapiens with 6 samples.

Results

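The tet-control line of J82, an established human bladder cancer line, was compared after 24 h with doxycycline and before it. The comparison rests on 2 of the series' 6 libraries, those titled tet-control at 24 h and tet-control at 0 h, with 1 library each. The tet-control library at 6 h shows what had come and gone in between. The other line of the study, tet-ZFP36L1, carries ZFP36L1 under doxycycline control and was sampled at the same times, 0, 6 and 24 h. Doxycycline was given at 1 µg/mL, and the 0 h groups had none. The sources used here do not say what the tet-control construct carries. Values are gene sums of the estimated counts of a transcript quantifier, and 11909 of 52992 genes averaged 50 counts or more across the 6 libraries and are called measured. Of these, 11080 code for proteins.

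With 1 library per group there is no replicate, and the values are described without tests. Intervals below are exact binomial 95% intervals of the ratio of 2 counts. The libraries carry no molecular identifiers, so a read need not be a molecule of its own. The intervals cover counting error only, and neither the spread between cultures nor the division of reads among transcripts is in them. The 6 h and the 24 h difference share the 0 h library. The study has no tet-control culture kept for 24 h without the drug among the samples used here, so doxycycline and time in culture cannot be told apart.

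Doxycycline is a tetracycline antibiotic that switches tet-controlled transgenes in cultured cells, and it also acts on the mitochondrial ribosome, which resembles that of bacteria. Cells make cholesterol from acetyl-CoA through mevalonate, farnesyl diphosphate and lanosterol. The genes of that route are driven together by the transcription factor SREBP2 (gene SREBF2), which SCAP escorts out of the endoplasmic reticulum when sterols are scarce and which the INSIG proteins hold back. Genes of mitosis are transcribed late in the cell cycle, and many carry a cell cycle homology region beside CCAAT boxes bound by NF-Y, a factor that also works with SREBP2.

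Promoters of the 2 gene groups on which the comparison turns are shown because their members stood higher at 24 h together. The examples were taken from sterol promoters that hold CCAAT and mitotic promoters that hold TTTGAA. The presence of these letters in them is therefore a result of the choice. Only the group shares given further below can be read, and those as a property of the gene lists. Some genes with larger 24 h differences than some of those shown, such as INSIG1, IDI1 and CDC25C, are not among them. The 120 bases before the RefSeq start of 4 sterol genes and 4 mitotic genes are written 5′ to 3′ on the gene's strand, on GRCh38.p14. Capitals mark CCAAT on either strand (read as CCAAT or ATTGG) and TTTGAA on either strand (read as TTTGAA or TTCAAA), which can overlap by a base. The order is HMGCS1 (chr5:43313413-43313532, minus strand), MVK (chr12:109573674-109573793, plus), MVD (chr16:88663092-88663211, minus), DHCR7 (chr11:71448394-71448513, minus), MKI67 (chr10:128126424-128126543, minus), CDCA8 (chr1:37692396-37692515, plus), PLK1 (chr16:23678769-23678888, plus) and KIF4A (chrX:70289984-70290103, plus).
HMGCS1: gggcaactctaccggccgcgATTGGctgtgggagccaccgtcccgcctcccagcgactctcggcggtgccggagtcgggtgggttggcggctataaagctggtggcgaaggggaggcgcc
MVK: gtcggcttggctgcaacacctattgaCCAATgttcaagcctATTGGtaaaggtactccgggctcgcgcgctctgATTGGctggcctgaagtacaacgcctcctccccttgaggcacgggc
MVD: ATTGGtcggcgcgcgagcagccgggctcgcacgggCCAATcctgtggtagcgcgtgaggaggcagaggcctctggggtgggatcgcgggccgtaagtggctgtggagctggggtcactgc
DHCR7: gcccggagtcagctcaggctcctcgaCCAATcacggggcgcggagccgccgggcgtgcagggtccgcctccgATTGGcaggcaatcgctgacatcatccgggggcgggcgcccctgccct
MKI67: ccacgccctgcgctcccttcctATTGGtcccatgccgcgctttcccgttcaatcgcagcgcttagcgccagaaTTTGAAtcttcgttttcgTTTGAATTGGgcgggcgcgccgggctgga
CDCA8: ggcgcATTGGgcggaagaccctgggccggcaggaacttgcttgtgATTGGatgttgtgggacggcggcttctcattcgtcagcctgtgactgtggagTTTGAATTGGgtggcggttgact
PLK1: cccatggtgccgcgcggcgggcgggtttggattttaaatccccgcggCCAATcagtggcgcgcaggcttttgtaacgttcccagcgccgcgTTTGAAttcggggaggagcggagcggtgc
KIF4A: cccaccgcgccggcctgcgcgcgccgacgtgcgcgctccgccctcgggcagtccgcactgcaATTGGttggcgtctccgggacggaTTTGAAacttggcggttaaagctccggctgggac

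In windows of 300 bases, from 250 before to 50 after the start, CCAAT was found in 16 of 22 sterol promoters and 46 of 63 mitotic promoters that matched a RefSeq entry, or 72.7% and 73.0%. Of the 9092 matched promoters of measured genes 37.2% held it, and of all 27305 RefSeq promoters 35.7%. TTTGAA was found in 43 of the 63 mitotic promoters (68.3%), against 9.25% of measured genes and 15.4% of all RefSeq promoters, and in 1 of 22 sterol promoters. In 35 of the 43 it lay within 60 bases of the start. The mitotic genes with TTTGAA had a median 24 h difference of 0.17 on the log2 scale and the 20 without it 0.18, so the match did not separate them. The sterol regulatory element, searched as TCACNCCAC on both strands, was found in 1 of the 22 sterol promoters and in 1.11% of measured genes. These are matches of letters, not sites of binding. The shares of the sterol and mitotic lists follow from the choice of genes and the reference sequence. No 24 h difference enters them. Genes with and without CCAAT were not compared in their 24 h difference, so whether CCAAT bears on the higher levels was not tested.

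The libraries were of like size, with 20739025 to 21380480 estimated counts each over all 6, and the 24 h tet-control library held 21316151. ZFP36L1, the gene the other line overexpresses, stood at 4709, 4174 and 4069 counts at 0, 6 and 24 h in tet-control, so the control line showed no induction. Of 10 leukocyte markers 9 were under 10 counts in all 3 tet-control libraries, as were 5 of 6 endothelial markers. The remaining leukocyte marker, CD68, shares 81.2% of its sequence words with another gene and cannot be read alone. Of 23 urothelial and epithelial markers 12 were also under 10 counts in the 3 libraries, among them UPK2, GATA3, KRT5 and TP63. The keratin gene KRT8 (258.4, 350.3 and 268.9 CPM) and the adhesion gene CD44 (1047, 1165 and 1073 CPM) were well counted. The urothelial set as a whole does not bear out the label of a bladder line, and these 2 genes alone do not settle it. CPM is counts per 1000000 counts after TMM scaling, and differences are given on the scale log2(CPM + 0.5), which understates those of genes with few counts.

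At 24 h the control line stood close to its 0 h state. Of the 11909 measured genes 45 were at least 2-fold higher than at 0 h (0.378%) and 51 at least 2-fold lower (0.428%). At 6 h the same rule had counted 289 higher (2.43%) and 265 lower (2.23%). At 1.5-fold, 190 (1.6%) were higher and 229 (1.92%) lower at 24 h, against 890 (7.47%) and 919 (7.72%) at 6 h. The standard deviation of the difference over genes was 0.27 at 24 h and 0.47 at 6 h. The median over genes was near 0 at both times.

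**Figure D1:**
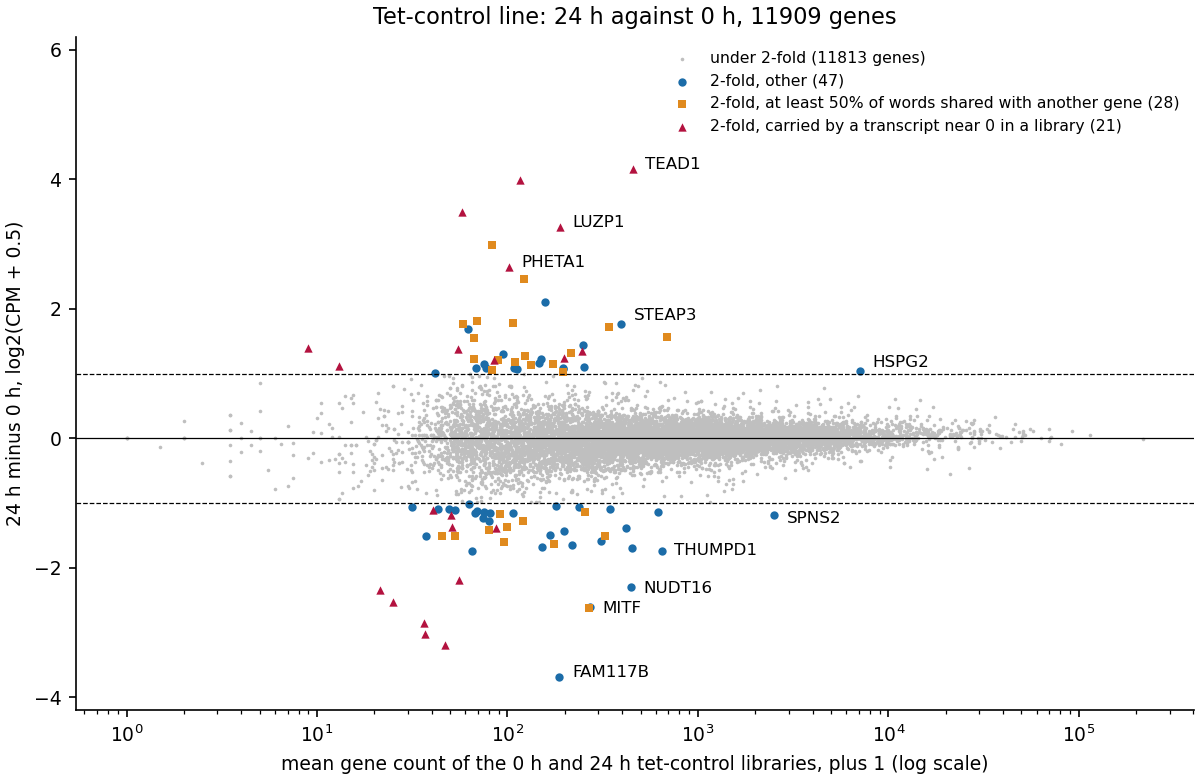
Difference of the tet-control 24 h library from the 0 h library, log2(CPM + 0.5), against the mean count of the 2 libraries plus 1 on a log axis, with 1 point per gene and dashed lines at 2-fold. The 96 genes past 2-fold lie almost all at low counts: 2 of them, HSPG2 and SPNS2, have a mean count of at least 1000.

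Which genes passed 2-fold depended on how many reads they had. Among 1331 genes averaging under 100 counts, 47 passed (3.53%), and among 3978 genes with 1000 to 5000 counts 1 did. Of the 96 genes past 2-fold, 49 had under 50 counts in their lower library and 30 do not code for proteins. For 35 of the 96, at least 50% of the 31-base words of their transcripts also occur in another gene, so the quantifier could have moved reads between copies. The plot of difference against mean count shows these classes.

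Only 2 genes averaging 1000 counts or more passed 2-fold. HSPG2 encodes perlecan, a large heparan sulfate proteoglycan of basement membranes (GRCh38 chromosome 1, 21822245 to 21937297, minus strand). Its levels at 0, 6 and 24 h were 232.1, 455.8 and 478.1 CPM, 2.06 times its 0 h level at 24 h (interval 1.99 to 2.13). SPNS2 exports sphingosine-1-phosphate from cells (chromosome 17, 4498838 to 4539035, plus strand). It stood at 175.0, 94.97 and 76.6 CPM, 0.438 times its 0 h level at 24 h (0.412 to 0.465). Both had taken most of the difference by 6 h, and neither returned.

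With a minimum mean of 1000 counts over tet-control alone and a 1.5-fold threshold, a rule added after the values were seen, 12 of 4666 genes were higher at 24 h (0.257%) and 14 lower (0.3%). Among the 12, HMGCS1, IDI1 and INSIG1 belong to the sterol list, and TMEM97, the sigma-2 receptor, stood at 169.9, 154.4 and 258.4 CPM. Other members belong to the matrix and the actin cytoskeleton. TAGLN, the actin-binding transgelin, stood at 79.1, 389.5 and 132.7 CPM, so it was still 1.68 times its 0 h level after a larger excess at 6 h. SERPINH1, the collagen chaperone, stood at 65.7, 96.7 and 107.5 CPM. LTBP4, which holds latent TGF-beta in the matrix, stood at 44.4, 61.0 and 73.2 CPM, and HMGN2, a nucleosome-binding protein, at 433.5, 448.7 and 657.2 CPM. The antisense gene AC006064.4 shares 93.6% of its words with GAPDH and cannot be read apart from it.

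ID1 and ID3 were also among the 12. The 4 ID genes encode helix-loop-helix proteins that bind and block E-box transcription factors, and they were picked out as a family after their values were seen. ID1 stood at 95.1, 131.6 and 167.2 CPM, 1.76 times its 0 h level at 24 h (1.66 to 1.86). ID3 stood at 55.0, 97.4 and 84.0 CPM. The less abundant ID2 and ID4 had counts of 51, 110 and 137 and of 66, 59 and 149, with 24 h differences of 1.29 and 1.09. All 4 were higher at 24 h, and all 4 were also higher at 24 h than at 0 h in tet-ZFP36L1, by 0.33, 1.38, 1.25 and 0.85 for ID1 to ID4.

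The 14 lower genes of that depth had more varied roles. RHOB, a small GTPase of the actin cytoskeleton, stood at 87.3, 27.0 and 49.4 CPM, low at 6 h and part way back at 24 h. ZNF512B, a zinc finger protein, stood at 72.1, 95.1 and 39.2 CPM, and RAI14, an actin-associated ankyrin repeat protein, at 95.1, 95.03 and 55.0 CPM. For these 2 the low value is that of the 24 h library alone. The zinc importer SLC39A10 stood at 94.5, 69.3 and 57.7 CPM, and PTDSS1, which makes phosphatidylserine, at 86.9, 78.9 and 53.1 CPM. Netrin-4 (NTN4) and the elongation factor EEF1A2 stood at 0.638 and 0.646 times their 0 h levels.

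Of the sterol list, 27 of 29 genes were measured, and nearly the whole route stood higher at 24 h. Their median difference was 0.41, against -0.00 over all genes, and 24 of 27 lay above 0, against 49.1% of all genes. No sterol gene reached 2-fold and 4 reached 1.5-fold: HMGCS1, ACAT2, INSIG1 and IDI1. The counting interval of the ratio lay wholly above 1 for 21 of the 27 (77.8%) and wholly below 1 for 1, where 19.2% and 19% of all genes did so. Such intervals are narrower for abundant genes, so the like share among genes averaging 1000 counts or more is the nearer yardstick: 29.3% above and 20.8% below, against 18 of 21 sterol genes above.

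The first steps stood highest. ACAT2, which joins acetyl-CoA units, stood at 14.4, 15.7 and 23.4 CPM, but 50.3% of its words are shared with another gene. HMGCS1 makes HMG-CoA (chromosome 5, 43289395 to 43313512, minus strand) and stood at 170.2, 192.2 and 293.4 CPM, 1.72 times its 0 h level (1.65 to 1.80). In both the 6 h value lay between the others.

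From mevalonate to farnesyl diphosphate, 4 of 5 enzymes stood higher. The mevalonate kinase MVK stood at 41.6, 34.7 and 62.3 CPM, the decarboxylase MVD at 134.7, 113.1 and 193.5 CPM, the isomerase IDI1 at 63.8, 66.2 and 98.3 CPM and the synthase FDPS at 424.3, 376.9 and 592.0 CPM. The fifth, the phosphomevalonate kinase PMVK, stood at 35.9, 25.5 and 34.7 CPM, a ratio of 0.967 (0.870 to 1.08), so it was back at its 0 h level. In MVK, MVD, FDPS and PMVK the 6 h library was the lowest of the 3.

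The enzymes that commit the route to sterols were alike among themselves. Squalene synthase FDFT1 stood at 179.4, 144.8 and 259.7 CPM, squalene epoxidase SQLE at 272.3, 311.3 and 368.6 CPM and lanosterol synthase LSS at 152.4, 131.9 and 226.1 CPM. Their ratios at 24 h were 1.45, 1.35 and 1.48.

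Beyond lanosterol the differences were smaller, with a median of 0.36 over 9 enzymes. DHCR7, a reductase of the final steps, was the highest of them at 277.0, 276.1 and 389.3 CPM. CYP51A1, the lanosterol demethylase, stood at 243.5, 239.8 and 323.8 CPM, with 83.0% of its words shared with another gene. MSMO1, NSDHL, HSD17B7, EBP and SC5D had differences from 0.33 to 0.45. The exception was TM7SF2, a sterol reductase, which stood at 30.7, 15.1 and 33.1 CPM and so was lowest at 6 h and back at 24 h.

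Uptake and control genes were mixed. STARD4, a cytosolic sterol carrier, stood at 54.7, 56.3 and 68.7 CPM, and NPC1, which exports cholesterol from lysosomes, at 85.4, 127.9 and 107.5 CPM with its highest value at 6 h. NPC2, its partner, had a ratio of 1.05 (0.974 to 1.14). INSIG1, a SREBP2 target as well as its brake, stood at 272.2, 255.0 and 427.7 CPM, 1.57 times (1.52 to 1.63). SREBF2 itself had a ratio of 1.03 (0.999 to 1.07), SCAP 0.888 (0.837 to 0.942) and INSIG2 0.889 (0.744 to 1.06). Of the 20 enzymes, 19 had a higher ratio than any of these 3.

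**Figure D2:**
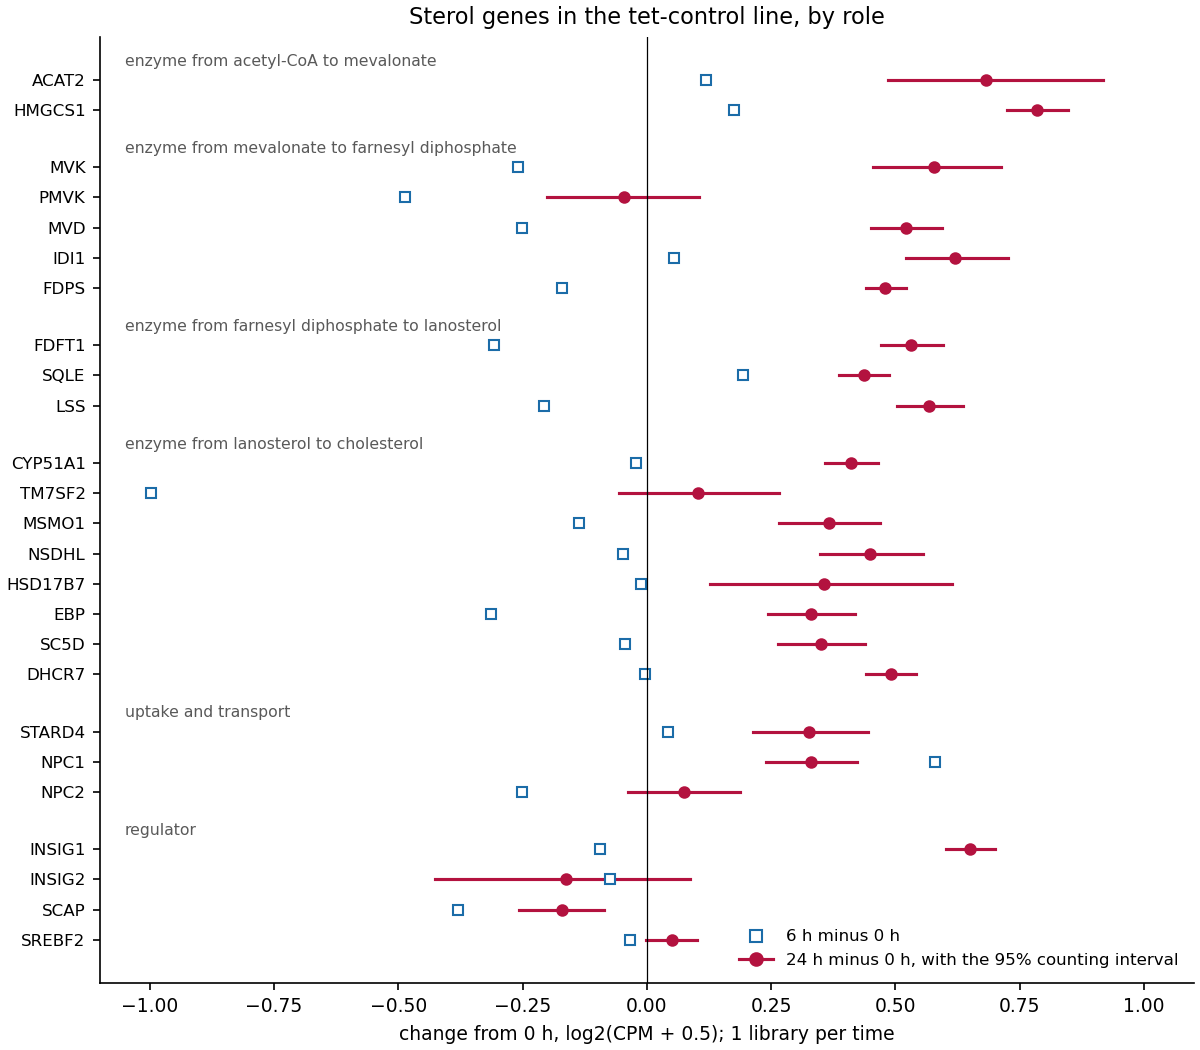
Differences from 0 h on the log2(CPM + 0.5) scale for 25 of the 27 measured sterol genes of the tet-control line, by role, at 6 h (open squares) and 24 h (filled circles with the 95% counting interval), 1 library per time. At 24 h 22 of the 25 shown lie above 0, while at 6 h 6 do.

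At 6 h the same genes had a median of -0.07 and 7 of 27 lay above 0, so the higher level was that of the 24 h library alone. Set against 6 h in place of 0 h, the 24 h median was 0.50. Of 12 listed fatty acid synthesis genes 11 were measured, and they stood likewise, with medians of -0.36 and 0.31 at the 2 times and 10 of 11 above 0 at 24 h. The fatty acid synthase FASN stood at 473.7, 497.9 and 652.8 CPM and the desaturase SCD at 592.4, 456.3 and 808.2 CPM. ELOVL6, an elongase, stood at 82.3, 39.7 and 77.4 CPM, back at 24 h from a value less than 0.5 times its 0 h level. Of the genes that carry cholesterol out of cells, ABCA1 and ABCG1 held at most 6 counts in each tet-control library.

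All 72 listed mitotic genes were measured, and nearly all stood a little higher at 24 h. The median difference was 0.19, and 66 of 72 lay above 0. None reached 1.5-fold in either direction. The counting interval lay above 1 for 56 of the 72 (77.8%) and below 1 for 2. Among the 66 that averaged 1000 counts or more, 53 lay above 1 (80.3%), beside the 29.3% of all genes at that depth. Medians by role ran from 0.13 for the 4 cytokinesis genes and the 8 kinases to 0.22 for the 8 cyclins and activators of CDK1, apart from MKI67, so no one step of mitosis stood out.

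MKI67, the marker of proliferating cells, had the highest value, at 716.2, 1190 and 1001 CPM and a ratio of 1.40 (1.37 to 1.43). It was already higher at 6 h. The kinase PLK1 stood at 181.8, 183.5 and 231.0 CPM and the kinase AURKA at 274.8, 279.4 and 329.9 CPM, both high in the 24 h library alone. CDC25C, the phosphatase that activates CDK1, stood at 25.3, 19.2 and 33.6 CPM, and cyclin B1 (CCNB1) at 416.4, 362.5 and 497.1 CPM, with their lowest values at 6 h.

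The checkpoint and anaphase genes UBE2S and CDC20 stood at 1.21 and 1.18 times their 0 h levels. The motor proteins KIF20A and KIF4A stood at 1.27 and 1.25 times. In the spindle group TPX2 and PRC1 both stood at 1.21 times, and in the passenger complex CDCA8 and INCENP at 1.28 and 1.22 times. FOXM1, a transcription factor of these genes, stood at 309.0, 299.2 and 357.7 CPM, 1.16 times (1.12 to 1.20). The exceptions were few: the spindle protein CKAP2L stood at 53.3, 55.1 and 41.9 CPM, a ratio of 0.785, and ECT2, which starts cytokinesis, at 333.0, 262.1 and 306.2 CPM, a ratio of 0.919.

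**Figure D3:**
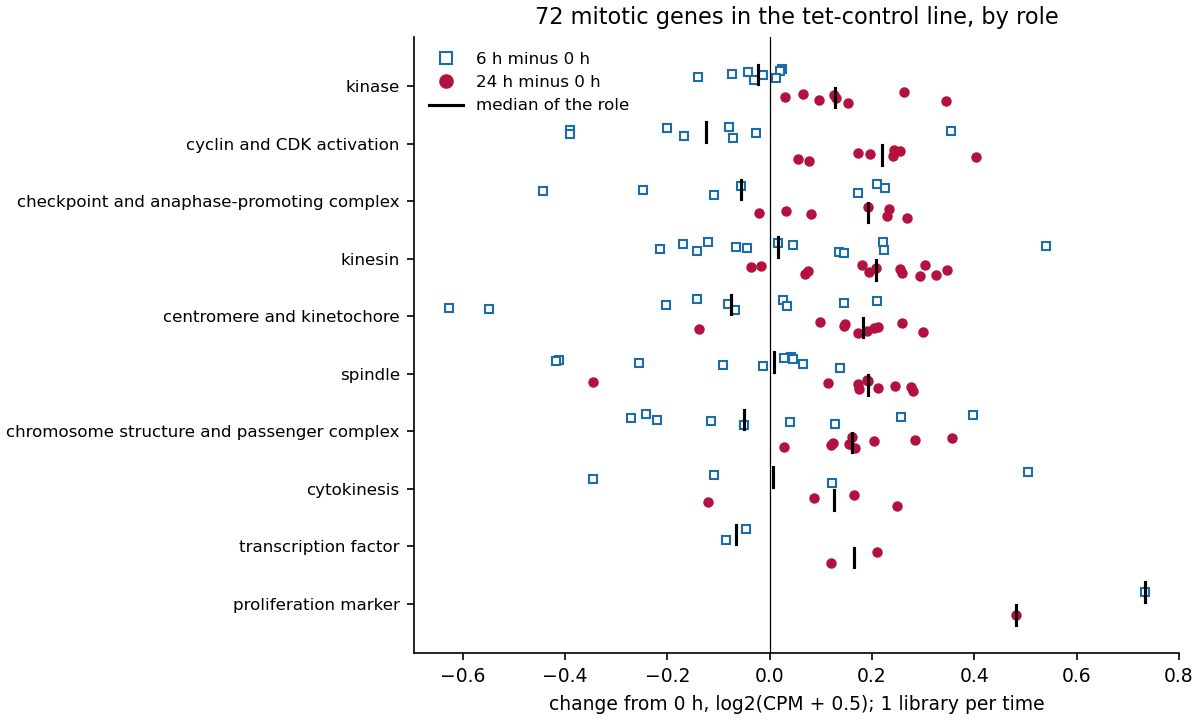
Differences from 0 h on the log2(CPM + 0.5) scale for the 72 mitotic genes of the tet-control line, by role, at 6 h (open squares) and 24 h (filled circles), with the median of each role as a bar. The 24 h points lie above 0 for 66 of 72 genes and stay below 0.5, while the 6 h points spread to both sides.

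At 6 h the mitotic median had been -0.05, with 30 of 72 above 0. DNA replication and G1/S genes did not stand with them: the median of 29 was -0.29 at 6 h and 0.01 at 24 h, and 17 lay above 0 at 24 h. RRM2, the ribonucleotide reductase subunit, was the highest of these, at 484.8, 526.0 and 617.6 CPM. Small positive differences were also seen among abundant genes at large, and their part in the mitotic value was not tested. The 4666 genes averaging 1000 counts or more had a median of 0.02 and the 715 with at least 5000 one of 0.05, with 66.0% above 0. Of 52 cytosolic ribosomal protein genes 47 lay above 0 at a median of 0.08, and of 20 housekeeping genes 17 at 0.07. The mitotic genes with at least 5000 counts, 17 in all, had a median of 0.23.

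The other lists show what had been seen at 6 h and no longer at 24 h. The 13 mRNAs encoded in mitochondrial DNA were the clearest case. All 13 lay above 0 at 6 h with a median of 0.89, and 11 were at least 1.5-fold higher, whereas at 24 h the median was -0.04 and none passed 1.5-fold. MT-CYB, cytochrome b of complex III, had 11323, 27104 and 11762 counts, and MT-ND1, a subunit of complex I, 10344, 26018 and 9916. MT-CO1, a subunit of complex IV, had 84237, 176246 and 77873 counts, with 66.7% of its words shared with a nuclear copy. The nuclear respiratory chain genes had medians of -0.19 and 0.04 over 43 genes, and the mitochondrial ribosome and translation genes -0.15 and 0.04 over 39.

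Targets of the integrated stress response, by which cells answer amino acid shortage and mitochondrial faults through ATF4, had medians of 0.50 at 6 h and -0.03 at 24 h over 29 genes. Asparagine synthetase (ASNS) had 1508, 3076 and 1447 counts, and the amino acid transporter SLC7A5 had 6638, 12658 and 6019. GDF15, a stress cytokine, went the other way, at 39.7, 8.72 and 24.9 CPM. Cytokines and feedback genes of NF-kB had medians of 0.50 and -0.05 over 23 genes, with IL6 at 899, 2479 and 869 counts. Contact and YAP target genes had 0.42 and 0.04 over 12, interferon-stimulated genes -0.21 and 0.07 over 30, and heat shock genes 0.28 and 0.01 over 11. Unfolded protein response genes had 0.05 and -0.03 over 19. Lists of immediate early, hypoxia, glycolysis, p53, NRF2, mitochondrial protein quality and circadian clock genes had medians within 0.1 of 0 at 24 h.

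**Figure D4:**
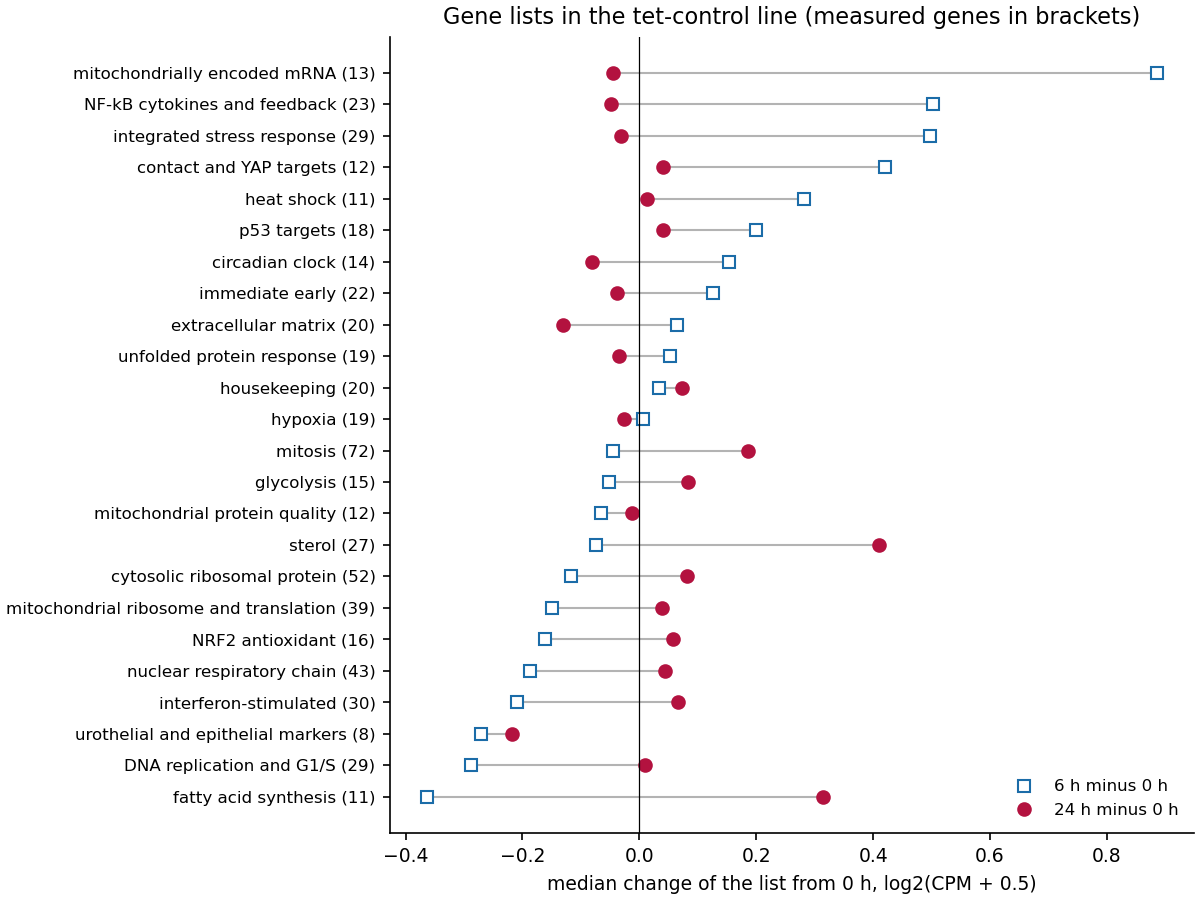
Median difference from 0 h, log2(CPM + 0.5), of each gene list with at least 5 measured genes in the tet-control line at 6 h (open squares) and 24 h (filled circles), ordered by the 6 h value. At 24 h most lists lie near 0, and the sterol (0.41), fatty acid synthesis (0.31) and mitosis (0.19) lists lie highest.

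Few lists stood away from 0 at 24 h. Among lists with at least 5 measured genes, and besides the sterol, fatty acid and mitotic genes, a median of 0.1 or more in size was found for extracellular matrix genes (-0.13, 20 genes) and for the 8 measured urothelial and epithelial markers (-0.22). Of the 20 matrix genes 14 lay below 0. COL1A2, a chain of type I collagen, was one of them, at 6.90, 4.07 and 4.71 CPM. THBS1, thrombospondin-1, ran against the list with its highest difference (0.36), at 339.0, 865.5 and 434.0 CPM. In the marker list KRT7 stood at 60.7, 51.8 and 43.9 CPM and PPARG, a transcription factor of urothelial cells, at 16.6, 6.42 and 10.9 CPM. Of the 8 markers 3 lay above 0, and the counting interval lay above 1 for 2 and below 1 for 2. The 23 listed markers summed to 1770, 2045 and 1783 CPM at 0, 6 and 24 h, so their summed level at 24 h was close to that at 0 h. Of 12 fibroblast and muscle markers 4 were measured, with a median of 0.19, and the 12 summed to 881.6, 1294 and 1095 CPM at 0, 6 and 24 h. TAGLN was the highest of the 4, and the intermediate filament gene VIM stood at 722.4, 799.9 and 877.2 CPM.

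A gene past 2-fold at 6 h was taken to have gone back when its 24 h difference from 0 h was under 0.5 on the log2 scale in either direction. Of the 554 genes past 2-fold at 6 h, 356 had gone back (64.3%), and the share was alike for the 289 higher (64.4%) and the 265 lower (64.2%). A further 143 were part way, 43 were still past 2-fold and 12 had crossed to the other side by 0.5 or more. The choice of 0.5 matters for some: 82 genes lay between 0.4 and 0.5 at 24 h and 51 between 0.5 and 0.6. Over all 11909 measured genes only 419 lay past 1.5-fold (0.58) at 24 h, so a small 24 h difference was the common state. A departure of the 6 h library alone would also count as gone back, and this was not tested.

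The share gone back differed with depth, though not step by step. It was 54.1% of 185 genes averaging under 100 counts over tet-control, 65.5% of 113 with 100 to 200 and 61.3% of 142 with 200 to 500. It was 79.6% of 49 genes with 500 to 1000 counts and 86.2% of 65 genes with at least 1000. The 65 include genes of mitochondrial DNA together with nuclear copies of them, so they are not independent. Of those 65 genes 55 had been higher at 6 h, and none was still past 2-fold at 24 h. In the sparsely counted group 16 of 185 were. The spread of the 24 h difference also differed with depth. Over all measured genes, the standard deviation of the 24 h difference was 0.48 under 100 counts and 0.15 from 1000 to 5000. Past 2-fold at 24 h were 47 of 1331 and 1 of 3978 of them, by mean count of the 0 h and 24 h libraries. The share of all measured genes under the cut of 0.5 was not counted by depth. How far depth bears on the share gone back was not tested.

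TRAF1, an adaptor of TNF receptor signalling, had 696, 4370 and 673 counts, and GLIPR1, a secreted CAP-family protein, 403, 2984 and 423. Both stood more than 6-fold above 0 h at 6 h and within 10% of it at 24 h. HBEGF, a ligand of the EGF receptor, had 1282, 4257 and 1375 counts, and CALD1, the actin-binding caldesmon, 4011, 11179 and 3307. HMOX1, heme oxygenase, had 4981, 10920 and 5622, and the zyxin gene ZYX 5519, 12942 and 6094. ALS2CL, a Rab exchange factor relative, had 80, 467 and 84 counts. LCP1 and LAMA1, named by the same rule, held 12 and 4 counts at 0 h, so their ratios rest on few reads.

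On the lower side, JUP, the junction protein plakoglobin, had 3431, 1086 and 2782 counts, and the focal adhesion protein TNS3 1665, 718 and 1628. SPIN4, a chromatin reader, had 471, 60 and 450 counts, CACHD1 204, 14 and 246, and the lysosomal acetyltransferase HGSNAT 197, 39 and 235. IFIT1, an interferon-induced RNA-binding protein, had 155, 29 and 165. TMEM189-UBE2V1, a readthrough gene, had 215, 0 and 206 counts, but 99.0% of its words are shared with another gene, and no ratio is given.

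Single genes were next followed to their transcripts. At the level of single transcripts, 3074 of 28131 with a mean of at least 50 estimated counts were past 2-fold at 24 h (10.9%), where 96 of 11909 genes were. Of the 3074, 2904 lay in genes whose sum differed by under 0.5. In 4109 genes with a single counted transcript 3.09% of those transcripts passed 2-fold, against 12.3% of 24021 transcripts in genes with several. In 421 cases a transcript held under 10 counts in 1 of the 2 libraries and at least 100 in the other.

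Of the 96 genes past 2-fold, 21 rested on transcripts with under 10 estimated counts in a library. Over transcripts with at least 10 in both libraries, their difference was under 0.5 or no transcript was left. The number was 38 with a minimum of 20 counts in place of 10. Reads moved among a gene's own transcripts leave its sum as it was, so the rule marks sparse transcripts and does not show such moves. A further 41 of the 96 code for proteins, share under 50% of their words and did not meet the rule at 10 counts. In 36 of the 96 no other transcript of the gene held counts in either library, so division among transcripts of the gene cannot be read there. Without the leading transcript, the one whose count differed most, 53 genes kept at least 10 counts in a library. In 29 of the 53 that transcript carried at least 80% of the gene's difference in counts. When it was left out, 18 of the 53 were still past 2-fold in the same direction and 18 were under 0.5. The leading transcript of 27 of the 96 also ranged at least 10-fold among the 3 tet-ZFP36L1 libraries. The like share over all counted transcripts was not counted, and ZFP36L1 was induced in that line, so no more is read from the 27. Leading transcripts had a median length of 3044.5 bases, against 2174 over all counted transcripts. They were picked by the size of their count difference, so the 2 lengths do not compare on equal terms.

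TEAD1, the DNA-binding partner of YAP (chromosome 11, 12674591 to 12944483, plus strand), had the highest difference of all measured genes, 4.16, with gene counts of 40, 252 and 865. Its transcript TEAD1-203 of 8477 bases held 0.9, 199.0 and 819.5 estimated counts in tet-control and 394.1, 533.4 and 234.4 in tet-ZFP36L1. Its other transcripts summed to 39.2 counts at 0 h and 45.1 at 24 h, a difference of 0.19. The 0 h tet-control library is thus the only one of the 6 with next to none of this transcript.

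LUZP1, a leucine zipper protein of the cytoskeleton, had a difference of 3.26 from gene counts of 28, 145 and 348. LUZP1-203, of 8502 bases, held 0, 14.6 and 320.3 counts in tet-control and 173.4, 513.3 and 23.5 in tet-ZFP36L1, while LUZP1-201 held 18.4, 106.6 and 22.0 in tet-control. The other transcripts summed to 28.1 at 0 h and 27.9 at 24 h. PHETA1, an endosomal adaptor, had 21, 68 and 181 counts, of which PHETA1-201 held 0, 19.2 and 165.4. The remaining transcripts of PHETA1 went from 21.1 to 15.2 counts, so the gene's difference of 2.65 has the opposite sign without that one.

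Other genes of this class were sparse or shared. FAM156B, with a single counted transcript, had 91, 21 and 1 counts, and EXPH5, a Rab27 effector, 48, 54 and 0. ZACN, AL662899.2 and BORCS8-MEF2B share 58.1%, 98.0% and 91.3% of their words with another gene. Of the 21 genes 15 had a mean count under 100 in the 2 libraries.

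**Figure D5:**
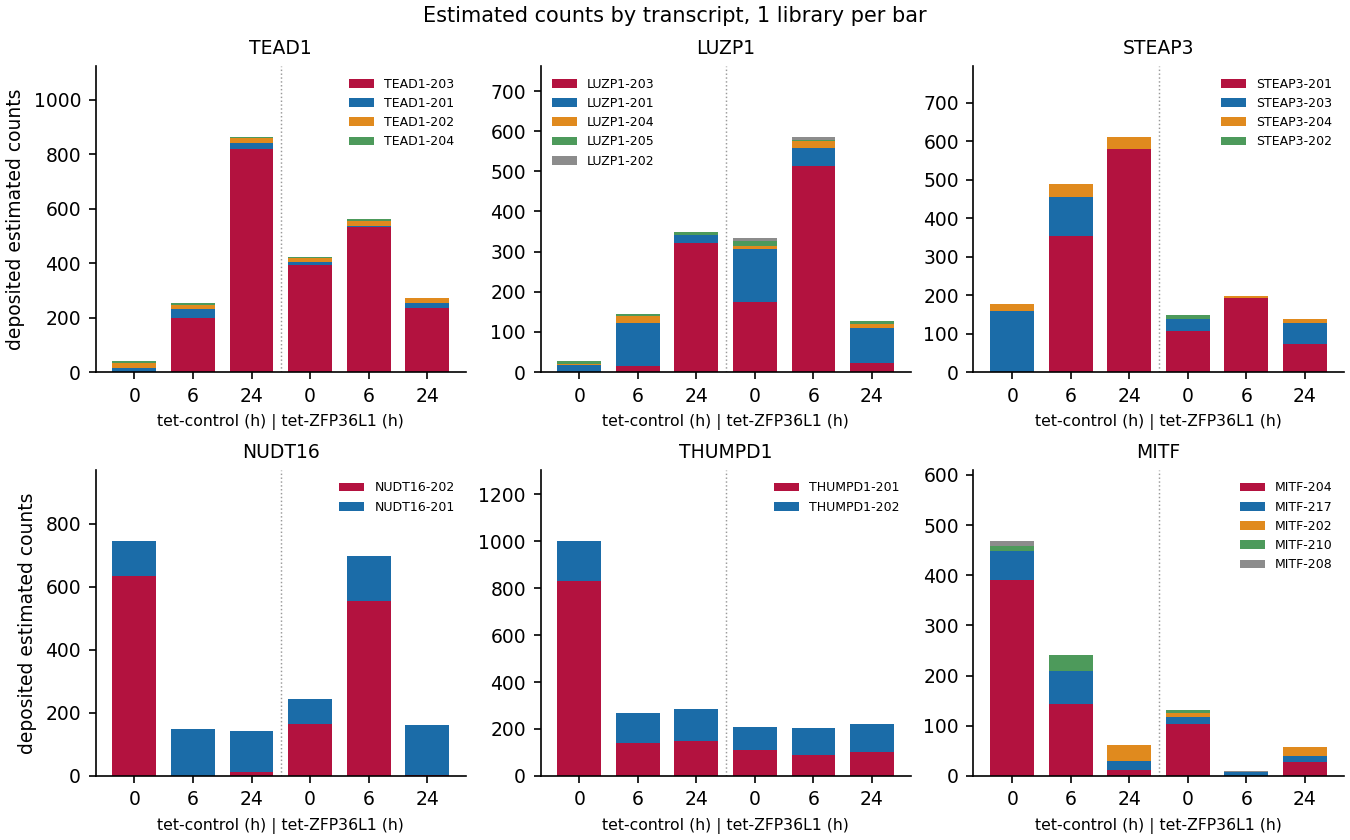
Deposited estimated counts of each transcript of 6 genes in the 6 libraries, stacked, with transcripts that reach 5 counts in some library. Within tet-control the transcript with the highest count (red) ranges from 0.9 to 819.5 counts in TEAD1 and from 139.6 to 832.6 in THUMPD1, while NUDT16-201 and THUMPD1-202 (blue) stay between 112.6 and 170.3. In tet-ZFP36L1 THUMPD1-201 stays between 88.3 and 111.7.

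Genes that kept some counts on each side pass that filter, but several of them show the same arrangement. NUDT16, a hydrolase that removes RNA caps, had 747, 150 and 142 counts. NUDT16-202 of 6108 bases held 634.0, 0 and 13.7 counts, and 554.2 in tet-ZFP36L1 at 6 h against 3.0 at 24 h, while NUDT16-201 held 112.6, 150.1 and 128.6. THUMPD1, which helps acetylate tRNA, had 1003, 273 and 287 counts, with THUMPD1-201 at 832.6, 139.6 and 147.7 and THUMPD1-202 at 170.3, 130.2 and 139.1. In tet-ZFP36L1 the first of these held 88.3 to 111.7 counts, so the 0 h tet-control library stands alone.

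STEAP3, an iron reductase of endosomes, had 177, 488 and 612 counts, a difference of 1.76. STEAP3-201 held 0.9, 353.4 and 581.5 counts and STEAP3-203 158.0, 102.8 and 0, so 1 rose as the other fell. The fall was smaller than the rise and does not account for the higher gene sum. MITF, a transcription factor, had 473, 241 and 68 counts, a difference of -2.60, with MITF-204 at 390.4, 144.1 and 11.7 and the other transcripts at 82.2 and 56.7 at 0 h and 24 h. CNOT6L, a deadenylase, had 695, 240 and 203 counts. CNOT6L-201 held 338.4 counts at 0 h and 0.2 at 6 h and at 24 h, and the rest of the gene still differed by -0.76. MAP3K14, the kinase NIK of the noncanonical NF-kB pathway, had 54, 98 and 260 counts, of which MAP3K14-201 held 176.1 at 24 h and none at 0 h or 6 h.

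The other named genes were mixed in this respect. FAM117B has a single counted transcript, with 355, 153 and 18 counts, the lowest difference of all measured genes (-3.68). In tet-ZFP36L1 it held 307, 98 and 239. ZNF761 stood higher in each of its 3 counted transcripts, with gene counts of 131, 370 and 364, and ID2 in each of 3. ZNF182 had 336, 254 and 99 counts, and both of its transcripts were lower at 24 h. The interleukin-1 receptor IL1R1 had 105, 85 and 24 counts, HOXC4 235, 134 and 65, the complement protease C1R 59, 28 and 14, and ZNF275 252, 308 and 81. ZNF275-202, which led that gene, ranged from 1.5 to 224.6 counts among the tet-ZFP36L1 libraries, and EXOC8-201, the counted transcript of its gene, 203.3, 440.1 and 2.8 at their 3 times. STK35, PAPLN, PGBD1, EXOC8, a subunit of the exocyst, and ZNRF3, an E3 ligase for Wnt receptors, had differences of 1.69, 1.17, 1.14, 1.11 and 1.09. STK35 rests on few reads, with 24, 47 and 98 counts. In ZNRF3 the transcript ZNRF3-203 held 43.0, 193.7 and 215.2 counts. The other transcripts of ZNRF3 went from 80.4 counts at 0 h to 52.4 at 24 h, a difference of -0.51 with the opposite sign.

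Among housekeeping genes, POLR2A, the largest subunit of RNA polymerase II, had 107, 108 and 39 counts, a difference of -1.23, while the other 19 lay within 1.5-fold. Its transcript POLR2A-206, of 602 bases, held 51.1 counts at 0 h and 3.8 at 24 h and carried 70.2% of the difference. The other transcripts of POLR2A went from 55.6 to 34.9 counts, a difference of -0.52, so the gene's value rests on few reads. Transcripts that matched no gene of the annotation, left out of all gene sums, were past 2-fold in 317 of 2014 cases (15.7%).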

How the data were processed

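RNA of J82 cultures was sequenced, on a BGISEQ-500 as the labels' protocols state, with 1 library in each of 6 groups assigned from sample titles. Quantification with kallisto, the build hg19 and the use of DESeq2 come from the submitters' processing notes, which give no versions. The deposited tables of the authors give estimated counts and TPM for 196354 transcripts; estimated counts need not be whole, and TPM sums to 1000000 per library. Whether strand was used was not given in the sources used here, and overlapping or antisense genes may share reads. Identifiers matched GENCODE 29 (GRCh38) for 181857 transcripts, and gene positions are from it. The unmatched held 5.12% to 5.46% of counts and were left out.

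Estimated counts were summed per gene, rounded and scaled with TMM (edgeR 4.0.16, R 4.3.3; factors 0.995, 0.941 and 0.978 for tet-control at 0, 6 and 24 h, computed on genes averaging 10 counts or more). Python 3.11.15, pandas 2.3.3 and scipy 1.17.1 did the rest. Sequence sharing was counted over 31-base words of matched transcripts. The 2-fold rule, the intervals and the transcript rule were run on simulated counts with planted changes. Those counts held counting error only, without spread between cultures or division of reads among transcripts. The planted transcript switches followed the rule's own definition. The run thus checks that the rules are computed as stated, not how they perform on real libraries. Neither edgeR nor DESeq2 was used for a count test. Promoters are RefSeq entries of GRCh38.p14.

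The comparison and the 28 gene lists were chosen with earlier results of these data known. Named genes are the 10 largest differences each way among coding genes past 2-fold with no 0 count, under 50% shared words and no transcript switch; all measured sterol genes; up to 2 each way of each mitotic role or other list; 5 each way gone back; 8 transcript switches; and the ZFP36 family. The text describes part of these, and some genes of the rule are not reported here. The well-counted genes with their rule, the ID genes, and some well-counted members of the lists and of the genes gone back were added after their values were seen.

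The alternatives tried were the size factors of DESeq2 1.42.0, CPM without TMM, deposited TPM, other count minimums, pseudocounts and thresholds, coding genes alone, transcripts counted in both libraries, and summed gene copies.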

Additional observations from a re-analysis of the deposited data

Results flagged for a closer look

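The sterol, fatty acid synthesis and mitosis lists had median 24 h differences of opposite sign in the 2 lines. They were 0.41, 0.31 and 0.19 in tet-control. For tet-ZFP36L1, set against its own 0 h library, they were -0.21, -0.54 and -0.66. With 1 library per group the difference between the lines was not tested. The members were not all opposed: MVK was higher by 0.58 in tet-control and by 0.57 in tet-ZFP36L1, and 9 of 27 sterol genes lay above 0 in tet-ZFP36L1, against 1 of 72 mitotic genes.

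The transcripts that matched no gene also held differences between the 2 tet-control libraries: 317 of them were past 2-fold at 24 h, of which 153 were higher and 164 lower, and 69 held under 10 counts in 1 library and at least 100 in the other. They carry no gene name here and entered no other result.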

How the results depend on the processing

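No paired analysis was possible because each group has 1 library and the labels give no replicate numbers. The sterol median kept its sign under each of the 11 other settings run for it, from 0.39 to 0.44. The mitotic median kept its sign too and was 0.11 with the deposited TPM, under which the median of all genes was -0.05. The counts of genes past 2-fold, 45 higher and 51 lower, were the least steady. They were 126 and 118 with a mean count of at least 10, 18 and 14 with at least 200, 13 and 13 with a pseudocount of 5, and 190 and 229 at 1.5-fold. Summing genes that share words left 25 higher. With the deposited TPM 66 of its 117 genes were shared with the 96, and over transcripts with at least 10 counts in both libraries 60 of 115. In 2 settings chosen after seeing the data the counts were 12 and 14 (at least 1000 counts, 1.5-fold) and 260 and 275 (without the transcript whose count differed most in each gene). The share of 6 h changes gone back, 64.3%, was 57.7% with a mean count of at least 10, 70.7% with at least 200, 58.6% and 75.4% with pseudocounts of 0.1 and 5, and 80.7% of genes past 1.5-fold at 6 h. Lists other than the sterol and mitotic ones, of at least 5 measured genes and with a median of 0.1 or more in size, numbered 3 (fatty acid, matrix and urothelial genes), with 5 under TPM and 1 with at least 200 counts. The count of 21 genes resting on sparse transcripts was 38 with a transcript minimum of 20. PHETA1 turned to -0.41 over transcripts counted in both libraries. Few reads limit what single genes show, since 49 of the 96 had under 50 counts in a library.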
